A study of Mus musculus with 10 samples.

Results

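Described here are 9 genes known from mouse neutrophils. They are the S100 genes S100a8 and S100a9, the resistin-like gene Retnlg, and the 6 stefin genes Stfa1, Stfa2, Stfa2l1, Stfa3, Cstdc4 and Cstdc5. They were chosen by gene symbol from a table of expression values, in which 52287 nuclear genes carry a symbol. The 10 RNA-seq libraries, in 5 groups of 2, come from tumours that 4T1 cells, a mammary carcinoma line of the mouse, had formed under the skin by day 14. The groups are the negative control (PBS in the design text), Free-MK1775, Free-MK1775+NLG919, Lipo-MK1775 and Lipo-MK1775+NLG, for which the design text writes NLG919. MK1775 is an inhibitor of the cell cycle kinase WEE1 and NLG919 is an inhibitor of the tryptophan-degrading IDO1 pathway. The labels state no dose, no make-up of the Lipo form and no strain or age of the mice. Nor do they say that each library is a mouse of its own, so p-values measure only the spread between these samples, which may be technical.

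S100A8 and S100A9 are calcium-binding proteins that pair to form calprotectin, the main cytosolic protein of neutrophils, which binds zinc and manganese and acts on the receptors TLR4 and RAGE once released. Retnlg encodes resistin-like gamma, a small secreted protein made in bone marrow and by circulating neutrophils. Stefins are small cytosolic inhibitors of cysteine cathepsins, and rodents carry a cluster of stefin A copies that developing and mature neutrophils transcribe strongly. S100A8, S100A9 and stefin A are also made by stratified epithelium, and 4T1 tumours are known to draw in many neutrophils.

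On GRCm39, the build of the files, S100a8 lies at chr3:90576285-90577342 on the plus strand and S100a9 at chr3:90599939-90603076 on the minus strand. Retnlg lies at chr16:48692984-48694859 on the plus strand. The 6 stefins share a stretch of chromosome 16 from 35977181 to 36275754, a span of 299 kb, with Stfa2l1, Cstdc4 and Stfa1 on the plus strand and Cstdc5, Stfa2 and Stfa3 on the minus strand.

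How alike the stefin copies are matters for every value below, because short reads from near-identical copies can be assigned to the wrong gene. Over the 15 pairs of stefin coding sequences in the GENCODE vM21 transcripts (GRCm38), identity ran from 56.5% to 96.5%. Stfa2 and Stfa2l1 were the closest pair, with 301 of 312 aligned coding bases identical and a longest shared run of 97 bases between their transcripts. Cstdc5 and Stfa1 shared a run of 100 bases, although their coding lengths differ (294 and 387 bases) and their aligned identity was 74.4%. The first 90 coding bases of each pair follow, with capitals at the bases that differ within the pair: 6 for Stfa2 and Stfa2l1, and 3 for Cstdc5 and Stfa1.
Stfa2: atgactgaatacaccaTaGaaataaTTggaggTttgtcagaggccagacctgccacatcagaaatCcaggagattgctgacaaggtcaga
Stfa2l1: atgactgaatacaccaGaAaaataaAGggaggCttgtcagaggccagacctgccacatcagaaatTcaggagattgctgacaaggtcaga
Cstdc5: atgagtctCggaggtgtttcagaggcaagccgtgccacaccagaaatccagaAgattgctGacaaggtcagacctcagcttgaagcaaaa
Stfa1: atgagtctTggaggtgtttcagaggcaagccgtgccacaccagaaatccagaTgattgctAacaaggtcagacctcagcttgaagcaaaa

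Promoter letters were read as well, and all 9 members have an entry in the RefSeq promoter table (GRCm38.p6). The 100 bases before the listed start are shown for S100a8 and for the 6 stefins, with capitals at 3 motifs on either strand. The motif TATAAA is the TATA box, the letters TTTAAA are a variant of it, and GAGGAA (reverse complement TTCCTC) is the core of the site bound by PU.1, a transcription factor of myeloid cells.
S100a8: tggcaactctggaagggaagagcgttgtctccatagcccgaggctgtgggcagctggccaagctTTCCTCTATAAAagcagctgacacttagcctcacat
Stfa2: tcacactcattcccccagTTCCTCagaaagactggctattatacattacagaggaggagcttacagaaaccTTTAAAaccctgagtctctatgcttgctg
Stfa2l1: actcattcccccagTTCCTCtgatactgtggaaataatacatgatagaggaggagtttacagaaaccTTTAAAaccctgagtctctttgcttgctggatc
Cstdc4: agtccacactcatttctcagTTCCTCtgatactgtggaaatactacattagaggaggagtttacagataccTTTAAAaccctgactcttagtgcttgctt
Cstdc5: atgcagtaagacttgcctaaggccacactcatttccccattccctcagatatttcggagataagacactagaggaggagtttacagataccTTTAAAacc
Stfa3: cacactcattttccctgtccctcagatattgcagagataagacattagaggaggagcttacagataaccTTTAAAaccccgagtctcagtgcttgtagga
Stfa1: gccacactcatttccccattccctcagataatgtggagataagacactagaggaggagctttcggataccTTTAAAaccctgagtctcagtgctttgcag

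These windows are chr3:90668971-90669070 (plus strand) for S100a8, chr16:36408364-36408463 (minus strand) for Stfa2, chr16:36156711-36156810 (plus strand) for Stfa2l1 and chr16:36184112-36184211 (plus strand) for Cstdc4. Those of the others are chr16:36367571-36367670 (minus strand) for Cstdc5, chr16:36455393-36455492 (minus strand) for Stfa3 and chr16:36277048-36277147 (plus strand) for Stfa1. All 6 stefin windows hold TTTAAA, which is present in 4.39% of 32851 promoter windows of the same length on either strand. It starts between positions -33 and -29 in 5 of them and at -9 in Cstdc5, counted from the listed start. The stefin promoters are related copies, with a pairwise identity of 64.5% to 89.4% over their 250 upstream bases. Matches among them are therefore not independent. The S100a8 window holds TATAAA at -30, as 5.56% of all windows do, directly after TTCCTC at -36. GAGGAA, in 9.82% of all windows, occurs in S100a8, Stfa2, Stfa2l1 and Cstdc4, while these letters are not in the 100-base windows of Cstdc5, Stfa3 and Stfa1. Neither S100a9 nor Retnlg holds any of these 3 motifs in its 100 bases. Another motif, the C/EBP core TTNNGNAA, is in 14.9% of all windows and in those of Stfa2, Stfa2l1 and Cstdc5. A match is a description of the letters and was not tested as a binding site.

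Levels below are FPKM, which is per length and so can be compared between genes. Each library was rescaled so that its nuclear genes sum to 1000000, because mitochondrial transcripts took 47.3% to 64.1% of the summed FPKM in 3 libraries (Free-MK1775+NLG919 replicate 2 and both of Lipo-MK1775) against 2.88% to 4.82% in the other 7. Those 3 libraries also had the lowest number of genes at a level of 1 or more, 12203 to 12677 against 13541 to 14314. Relative read depth ran from 1 in Lipo-MK1775 replicate 1 to 1.95 in negative control replicate 1. It was inferred from the commonest low product of FPKM and length among single-exon transcripts, taken as 1 read. A second difference between libraries is a marker sum of keratinocytes, 11 genes such as Krt5 and Krt10, which was 1134 in negative control replicate 1, 376 in Free-MK1775 replicate 2 and 501 in Lipo-MK1775+NLG replicate 2, against 4.31 to 11.4 in the other 7. The labels name the cell type as cancer cell, and the summed epithelial tumour markers Epcam, Krt8, Krt18, Krt19 and Cdh1 were at 939 to 1860. Macrophage markers summed to 3388 to 7648, so the libraries hold RNA of whole tumours. In such bulk samples, fewer cells of a type and less RNA per cell cannot be told apart.

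Both S100 genes were among the most abundant transcripts of these tumours. S100a9 ranked 161 and S100a8 235 by mean level among the 15440 genes tested, that is, genes at 1 or more in at least 2 libraries. Together they made up 0.0536% to 0.214% of nuclear FPKM. Ranks of the others were 1517 for Cstdc5, 2014 for Retnlg, 2267 for Stfa2l1, 3386 for Stfa3, 4621 for Cstdc4, 5494 for Stfa2 and 15063 for Stfa1. A mean hides the spread of some: within single libraries Cstdc5 ranked from 276 to 9022 and Stfa3 from 522 to 15070. Their median levels, 27.5 and 3.60, were below those of Retnlg (57.8) and Stfa2l1 (57.2). All 9 genes passed the filter, but Stfa1 did so only through negative control replicate 1 and Lipo-MK1775+NLG replicate 2.

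S100a8, the smaller calprotectin subunit, was at 465 and 326 in replicates 1 and 2 of the negative control, 283 and 483 in Free-MK1775, 338 and 793 in Free-MK1775+NLG919, 198 and 642 in Lipo-MK1775, and 922 and 652 in Lipo-MK1775+NLG. Both Lipo-MK1775+NLG libraries stood above both controls, while the other 3 groups overlapped the control. The spread inside Lipo-MK1775 reached from the lowest S100a8 level of all 10 libraries to a level just under that of Lipo-MK1775+NLG replicate 2. Group means ± SD (n = 2) were 395 ± 98.5 in the control and 787 ± 191 in Lipo-MK1775+NLG, whose log2 change was 0.99 (SE 0.58, limma adjusted p = 1).

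S100a9, the larger subunit, was at 816 and 574 in the negative control, 399 and 838 in Free-MK1775, 556 and 995 in Free-MK1775+NLG919, 338 and 1235 in Lipo-MK1775, and 1219.8 and 1003 in Lipo-MK1775+NLG. Again Lipo-MK1775+NLG did not overlap the control, and again the lowest library was Lipo-MK1775 replicate 1. The highest S100a9 level, however, was in the other Lipo-MK1775 library. S100a9 differed from the control by 0.69 (SE 0.59, adjusted p = 1) in Lipo-MK1775+NLG.

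The subunits kept a narrow ratio. S100a9 was 1.26 to 1.92 times S100a8 in every library, and the log2 levels of the pair had a Pearson r of 0.96 over the 10 libraries, which differ in depth and mitochondrial share. The control libraries were at 1.75 and 1.76, and the lowest ratio was in Free-MK1775+NLG919 replicate 2. Each S100 gene is listed with a second transcript. The second S100a8 transcript, a retained intron form in GENCODE vM21, took 3.58% to 13.4% of the S100a8 level. Its share was highest in Lipo-MK1775 replicate 1. The second S100a9 transcript took 13.8% to 31.9%.

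Retnlg was at 61.3 and 54.2 in the negative control, 31.9 and 50.9 in Free-MK1775, 48.2 and 83.4 in Free-MK1775+NLG919, 7.91 and 74.9 in Lipo-MK1775, and 142 and 126 in Lipo-MK1775+NLG. Its levels in Lipo-MK1775+NLG were above those of all 8 other libraries. Lipo-MK1775 replicate 1 was lowest, with a value that stands for about 19.5 reads, against about 282 in replicate 2. The mean was 134 ± 11.4 in Lipo-MK1775+NLG against 57.8 ± 5.00 in the control (SD, n = 2), a log2 change of 1.20 (SE 0.80, adjusted p = 1).

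The ratio of Retnlg to S100a9 varied more than that of the S100 pair. As a percentage of the S100a9 level it was 7.51 and 9.46 in the negative control, 8.01 and 6.07 in Free-MK1775, 8.66 and 8.38 in Free-MK1775+NLG919, 2.34 and 6.06 in Lipo-MK1775, and 11.7 and 12.6 in Lipo-MK1775+NLG. This ratio comes from within a library and does not depend on the scaling between libraries. Both Lipo-MK1775+NLG libraries were above all others, Lipo-MK1775 replicate 1 was far below them, and Lipo-MK1775 replicate 2 was level with Free-MK1775 replicate 2. Treatment and mitochondrial share cannot be told apart in Lipo-MK1775.

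**Figure D1:**
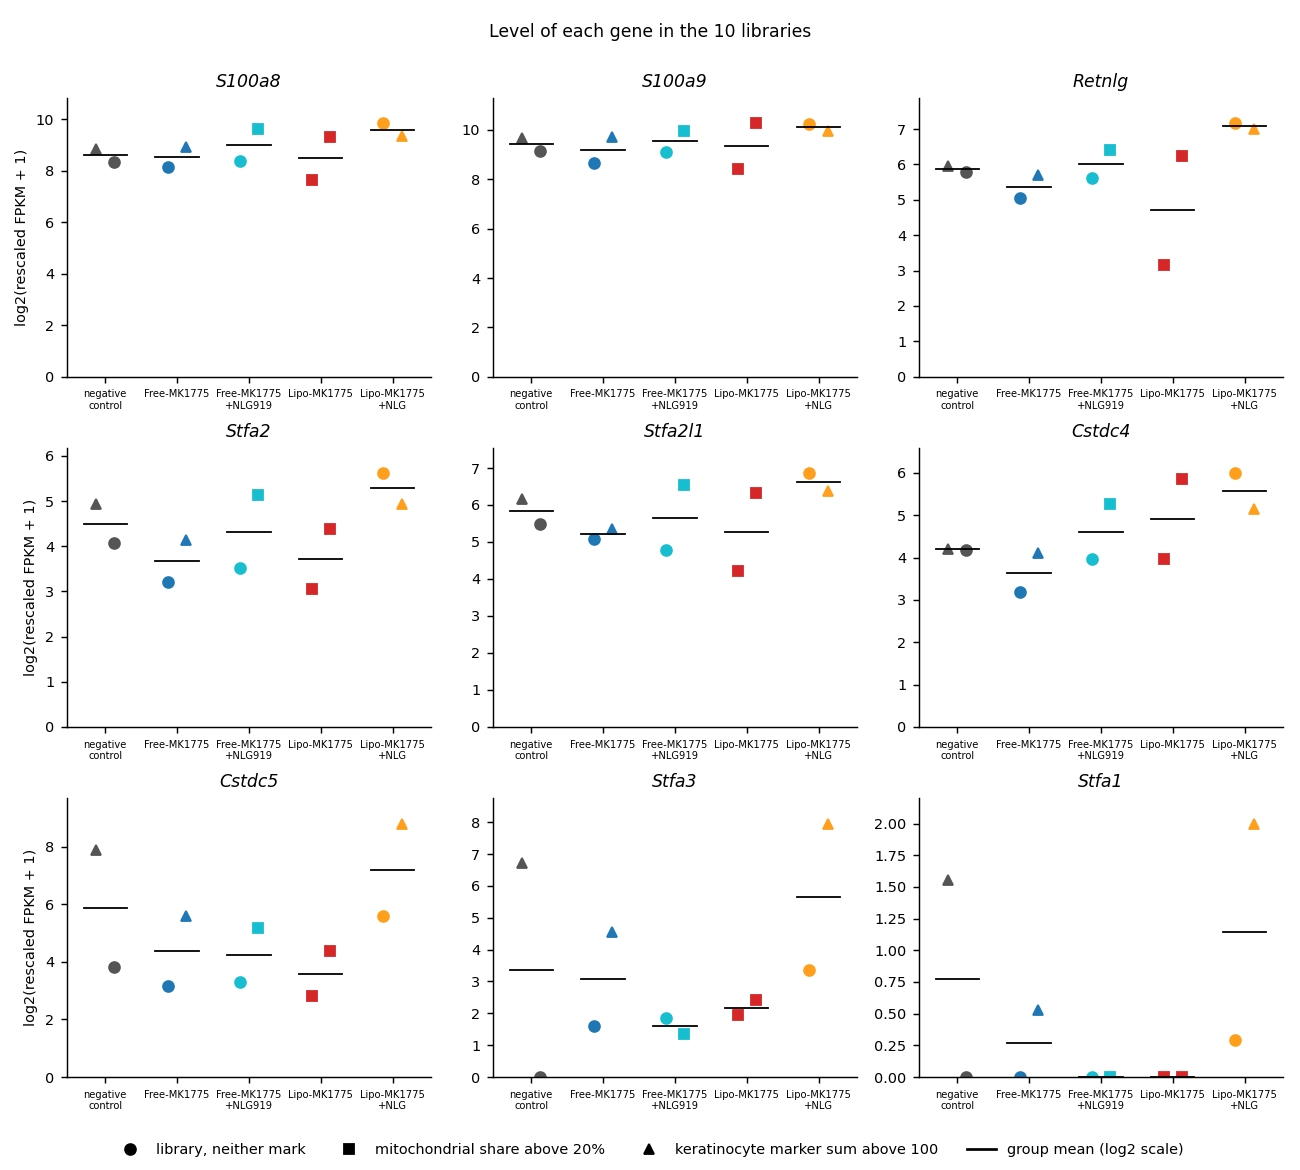
Levels of the 9 genes in each library on the log2(rescaled FPKM + 1) scale by group, with the bar at the group mean and the marker shape giving libraries with a mitochondrial share above 20% or a keratinocyte marker sum above 100. The Lipo-MK1775+NLG points of S100a8, S100a9, Retnlg, Stfa2, Stfa2l1 and Cstdc4 sit above both control points, while Cstdc5, Stfa3 and Stfa1 are highest in libraries drawn as triangles.

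Among the stefins, Stfa2l1 was at 70.3 and 44.0 in the negative control, 32.6 and 39.8 in Free-MK1775, 26.5 and 91.3 in Free-MK1775+NLG919, 17.7 and 79.3 in Lipo-MK1775, and 115 and 81.6 in Lipo-MK1775+NLG. Its order over the libraries was much that of S100a8, with a Pearson r of 0.94. Stfa2, its near-identical copy, was lower throughout: 29.4 and 15.7 in the negative control, 8.19 and 16.6 in Free-MK1775, 10.45 and 33.9 in Free-MK1775+NLG919, 7.36 and 19.9 in Lipo-MK1775, and 47.9 and 29.8 in Lipo-MK1775+NLG. The ratio of Stfa2l1 to Stfa2 lay between 2.39 and 3.98. The labels do not say how reads shared by the pair were assigned.

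Cstdc4, another stefin A copy, was at 17.4 and 17.3 in the negative control, 8.06 and 16.2 in Free-MK1775, 14.5 and 37.2 in Free-MK1775+NLG919, 14.7 and 56.5 in Lipo-MK1775, and 62.6 and 34.7 in Lipo-MK1775+NLG. The control libraries were nearly equal, and both Lipo-MK1775+NLG libraries were above them. Relative to S100a9, Cstdc4 was at 1.93% to 3.01% in the control and Free-MK1775 libraries, at 2.61% and 3.74% in Free-MK1775+NLG919, and at 3.46% to 5.13% in those of Lipo-MK1775 and Lipo-MK1775+NLG. A transcript of Cstdc4 that keeps an intron took 0.394% to 8.35% of its level. The log2 change of Cstdc4 in Lipo-MK1775+NLG against the control was 1.38 (SE 0.66, adjusted p = 1).

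The other 3 stefins had a different profile. Cstdc5 was at 236 and 13.2 in the negative control, 7.90 and 47.7 in Free-MK1775, 8.74 and 35.4 in Free-MK1775+NLG919, 6.07 and 19.6 in Lipo-MK1775, and 46.9 and 446 in Lipo-MK1775+NLG. Negative control replicate 1 and Lipo-MK1775+NLG replicate 2 stood far above their partners and above all other libraries. Stfa3 was at 105 and 0 in the negative control, 2.02 and 22.4 in Free-MK1775, 2.65 and 1.57 in Free-MK1775+NLG919, 2.83 and 4.37 in Lipo-MK1775, and 9.38 and 248 in Lipo-MK1775+NLG. Its 3 highest libraries were negative control replicate 1, Free-MK1775 replicate 2 and Lipo-MK1775+NLG replicate 2. Stfa1 was listed at 1.93 and 3.00 in the first and last of these, at 0.443 in the Free-MK1775 library, at 0.221 in Lipo-MK1775+NLG replicate 1 and at 0 in the other 6. At about 12.8 and 16.4 reads in its 2 highest libraries, Stfa1 is at the edge of detection.

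The libraries high in Stfa3 are the same 3 that are high in keratinocyte markers. Krt5, a keratin of the basal epidermal layer, was at 230.3, 44.8 and 335 in negative control replicate 1, Free-MK1775 replicate 2 and Lipo-MK1775+NLG replicate 2, and at 0 to 0.480 in the others. Krt10, a keratin of the upper epidermal layers, was at 216, 129 and 22.1 in the same order and at 1.60 to 6.30 elsewhere. Krt1, its partner keratin, was at 182, 77.3 and 15.2. In both libraries of Free-MK1775+NLG919 and in both of Lipo-MK1775, 6 of the 11 markers were at 0. Cstdc5 and Stfa3 had the same order over these 3 libraries as Krt5, with Lipo-MK1775+NLG replicate 2 highest and Free-MK1775 replicate 2 lowest, whereas Krt1 and Krt10 were lowest of the 3 in Lipo-MK1775+NLG replicate 2. The part of keratinocyte RNA in the stefin levels was not tested.

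Summed, the 6 stefins were at 461 and 90.2 in the negative control, 58.8 and 143 in Free-MK1775, 62.8 and 199 in Free-MK1775+NLG919, 48.7 and 179.8 in Lipo-MK1775, and 282 and 843 in Lipo-MK1775+NLG. The sum is less exposed than a single copy to reads assigned to the wrong copy, although FPKM is per length and the copies differ in length. Its groups overlapped, because negative control replicate 1 exceeded Lipo-MK1775+NLG replicate 1. Cstdc5 and Stfa3 made up 74.2%, 49.0% and 82.3% of it in the 3 libraries with high keratinocyte markers and 13.4% to 19.98% in the other 7. The sum of Stfa2, Stfa2l1 and Cstdc4 was 117 and 77.03 in the negative control and 225 and 146 in Lipo-MK1775+NLG. That of Stfa1, Stfa3 and Cstdc5 was 344 and 13.2 in the negative control and 56.5 and 697 in Lipo-MK1775+NLG. This split of the stefins was made after their values had been seen, and no test was made on it.

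**Figure D2:**
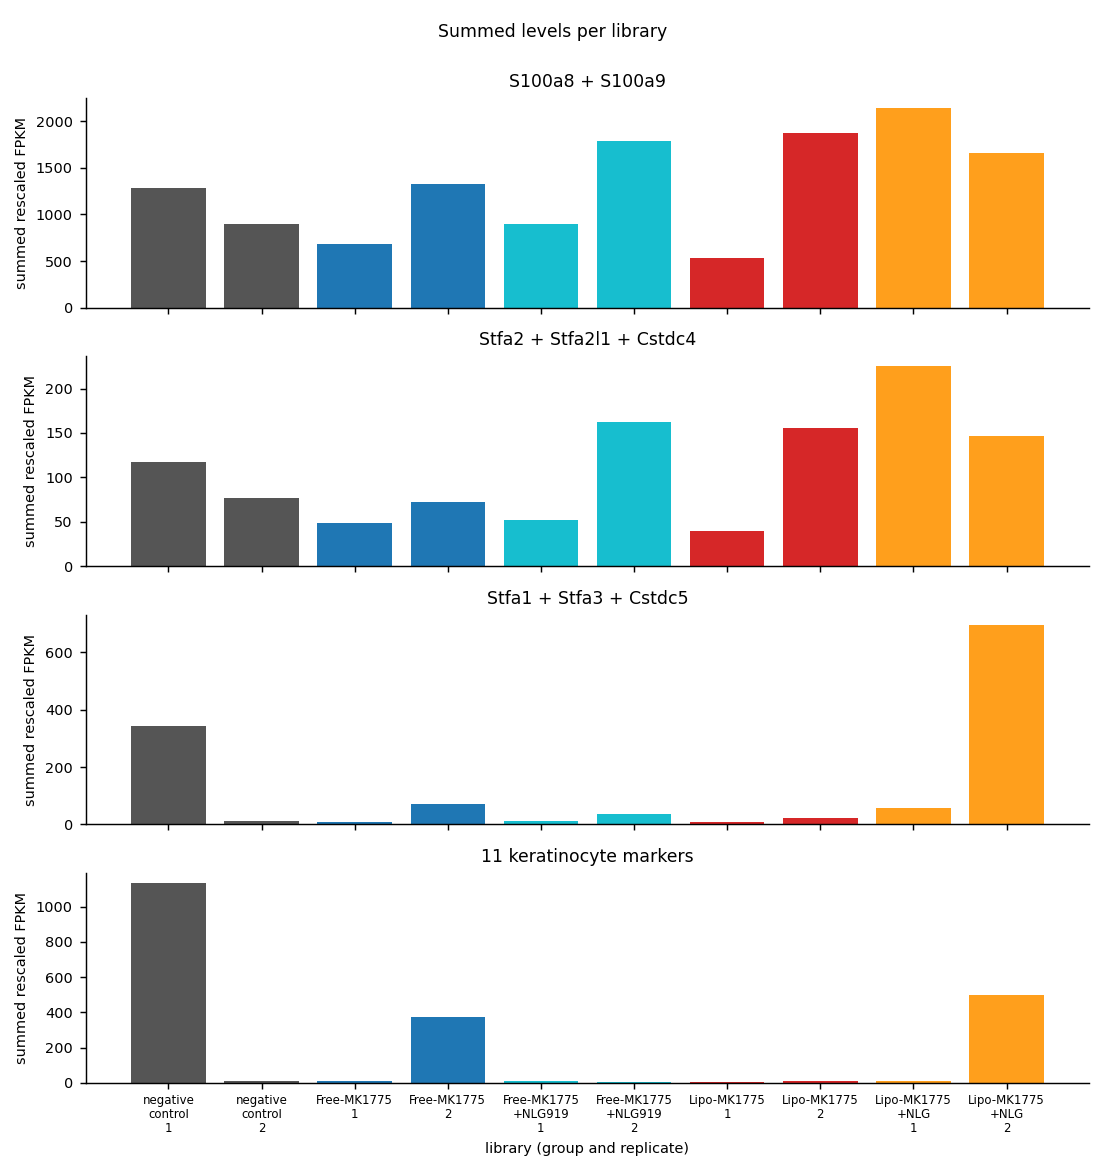
Summed rescaled FPKM per library, as bars from 0, for S100a8 and S100a9, for each set of 3 stefins and for the 11 keratinocyte markers. The panel of Stfa1, Stfa3 and Cstdc5 and that of the keratinocyte markers are both high in negative control replicate 1 and Lipo-MK1775+NLG replicate 2, whereas the panel of Stfa2, Stfa2l1 and Cstdc4 follows that of the S100 pair.

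Correlations over the 10 libraries, which share these differences in depth and mitochondrial share, describe the same split. S100a8 had a Pearson r of 0.90 with Retnlg, 0.92 with Stfa2, 0.94 with Stfa2l1 and 0.85 with Cstdc4. With Stfa3 the r of S100a8 was 0.36 and with Stfa1 it was 0.29. Stfa3 had an r of 0.90 with Cstdc5 and 0.95 with Stfa1. Cstdc5 lay between, with an r of 0.60 to S100a8.

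**Figure D3:**
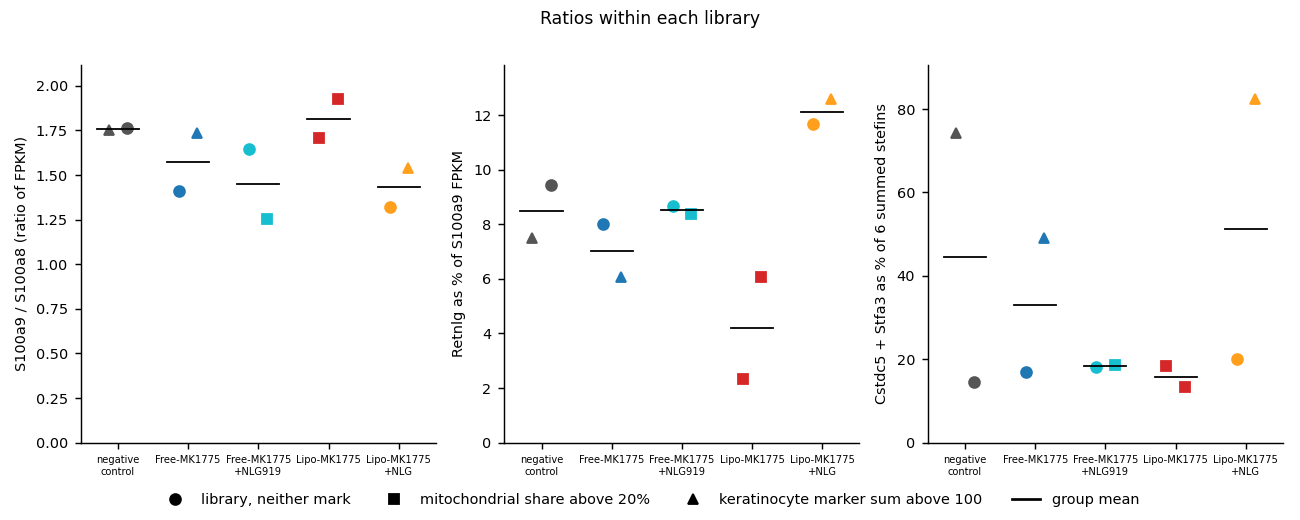
Ratios within each library by group, with the bar at the group mean and marker shapes giving libraries with a mitochondrial share above 20% or a keratinocyte marker sum above 100. Retnlg as a share of S100a9 is highest in both Lipo-MK1775+NLG libraries, and Cstdc5 with Stfa3 is at 49.0% to 82.3% of the summed stefins in the 3 triangle libraries and at 13.4% to 19.98% in the others.

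The first comparison asks how the free drug changed these genes. In Free-MK1775 against the control all 9 log2 changes were negative, with a median of -0.51 beside -0.06 over all genes tested, 41.8% of which had a positive change. None of the 9 passed the limma test at an adjusted p under 0.05, where 0.013% of all genes passed, and none had an unadjusted p under 0.05, where 1.97% of all genes did. Retnlg, Stfa2l1 and Cstdc4 were lower without overlap between the libraries, as 20.2% of all genes were, and no member was higher without overlap, as 13.1% of all genes were. The values for these genes were -0.51 (SE 0.80), -0.61 (SE 0.71) and -0.55 (SE 0.66), all with an adjusted p of 1. Stfa3 differed by -0.29, with an SE of 2.09 that is estimated over all groups and is the same in each comparison. Without the 3 libraries of high keratinocyte markers the change was 1.60, with the opposite sign. That value compares a lone library of each group, with Stfa3 at 0 in the control and 2.02 in Free-MK1775.

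In Free-MK1775+NLG919 against the same control libraries, 4 members were higher and 5 lower, with a median log2 change of -0.17 against -0.44 over all genes, of which 25.7% were higher. No member passed the test or had an unadjusted p under 0.05, where 0.0194% and 21.8% of all genes did. No member's libraries were separate from the control, as 9.87% of all genes were in the higher and 40.8% in the lower direction. S100a8 differed by 0.41 (SE 0.58, adjusted p = 0.674) and Cstdc4 by 0.41 (SE 0.66, adjusted p = 0.714). Replicate 2, the library with 47.3% mitochondrial FPKM, was the higher of the pair for 7 members, all but Stfa3 and Stfa1. Directions here turned on the settings. Stfa2 and Stfa2l1, each at -0.17, were at 0.34 and 0.35 with median-of-ratios scaling, and the members' median was then 0.35. Without the 3 libraries of high keratinocyte markers all 8 members with a value were positive, among them Cstdc5 at 0.41 and Stfa3 at 1.62, against -1.62 and -1.75 with all libraries. Stfa2 and Stfa2l1 were then at 0.26 and 0.16. Only replicate 2 of the control remains in these values, and Stfa3 is listed at 0 there.

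Lipo-MK1775 against the control gave a median of -0.77 for the members, close to -0.78 over all genes, and 1 member, Cstdc4, was higher, as 16.9% of all genes were. None passed the test or had an unadjusted p under 0.05, whereas 21.1% and 43.4% of all genes did. No member's libraries were separate from the control, while 67.4% of all genes were lower without overlap and 8.24% higher. Retnlg had a log2 change of -1.17 (SE 0.80, adjusted p = 0.273) and Cstdc5 one of -2.26 (SE 1.498, adjusted p = 0.260). Without the 3 libraries of high keratinocyte markers, negative control replicate 1 among them, the change of Cstdc5 was -0.23. That of Stfa3 was 2.18, against -1.18 with all libraries, with Stfa3 at 0 in the lone control library left. Changes of S100a8 and S100a9 were -0.13 (SE 0.58) and -0.08 (SE 0.59), which is 0.65 and 0.70 above the median of all genes, and 0.13 and 0.17 without those 3 libraries. With median-of-ratios scaling, which moved that median to -0.08, S100a8 was at 0.75 and S100a9 at 0.79, and 5 of the 9 members were higher. Without Lipo-MK1775 replicate 2, Retnlg passed the test (-2.72, adjusted p = 0.0321), but that fit rests on 1 Lipo-MK1775 library of about 19.5 Retnlg reads and a mitochondrial share of 64.1%, which is assumed to vary as the other groups do.

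The pair in Lipo form was then set against the control. All 9 log2 changes were positive, with a median of 0.99 beside -0.02 over all genes, and 46.9% of all genes had a positive change. None passed the limma test (adjusted p = 1 for each) or had an unadjusted p under 0.05, where 0.00648% and 2.53% of all genes did. S100a8, S100a9, Retnlg, Stfa2, Stfa2l1 and Cstdc4 were higher without overlap, as 20.7% of all genes were, and none was lower without overlap, as 23.4% were. Their log2 changes ran from 0.69 for S100a9 to 1.38 for Cstdc4. The remaining 3 overlapped: Cstdc5 was at 1.33 (SE 1.498), Stfa3 at 2.30 (SE 2.09) and Stfa1 at 0.37 (SE 0.62). Without the 3 libraries of high keratinocyte markers, which leaves a single library in each of these groups, the changes of S100a8, S100a9 and Retnlg were 1.5, 1.09 and 1.38, again with an adjusted p of 1 for each. That fit assumes that lone libraries vary as the 2 complete groups do.

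**Figure D4:**
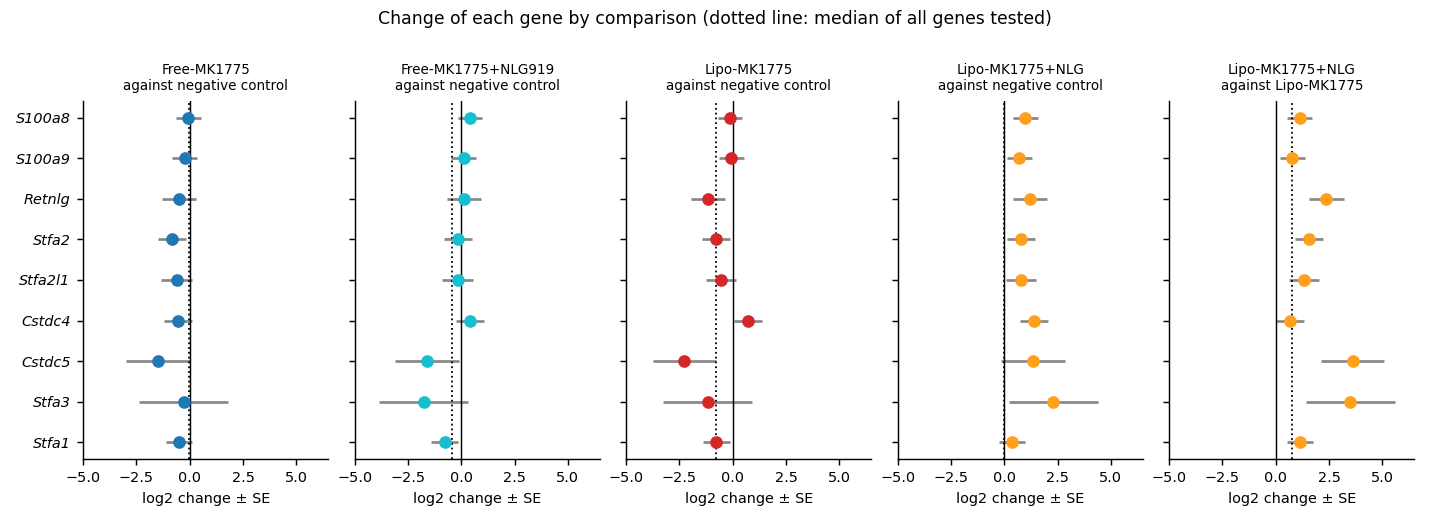
Log2 change of each gene with its SE in the 4 comparisons with the negative control and in Lipo-MK1775+NLG against Lipo-MK1775, with a solid line at 0 and a dotted line at the median of all genes tested. In Lipo-MK1775+NLG against the negative control all 9 points are to the right of the dotted line, while the SE bars of Cstdc5 and Stfa3 are the widest in each panel.

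The addition of NLG919 to the Lipo form was read from Lipo-MK1775+NLG against Lipo-MK1775. All 9 members were higher, with a median log2 change of 1.34, but so were 84.2% of all genes, with a median of 0.75. None passed the test, which 4.75% of all genes did, and Retnlg, Stfa2 and Cstdc5 had an unadjusted p under 0.05, as 41.3% of all genes had. Retnlg had a log2 change of 2.38 (SE 0.80, adjusted p = 0.0719), Stfa2 one of 1.55 (SE 0.65, adjusted p = 0.110) and Cstdc5 one of 3.60 (SE 1.498, adjusted p = 0.107). Without the 3 libraries of high keratinocyte markers, which leaves a lone Lipo-MK1775+NLG library, the change of Cstdc5 was 1.99. The 7 members whose libraries did not overlap were S100a8, Retnlg, Stfa2, Stfa2l1, Cstdc5, Stfa3 and Stfa1, which is listed at 0 in both Lipo-MK1775 libraries. Stfa1 passed the filter partly through Lipo-MK1775+NLG replicate 2 and stands for about 1.3 reads in replicate 1. Its separation is therefore not read as a difference. Among all genes, 68.8% were higher and 7.58% lower without overlap.

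Calls in that comparison turned on the scaling. With FPKM as deposited, mitochondrial transcripts inside the total, 5 members passed the test, where 6777 genes of the whole table did. The 5 were S100a8, Retnlg, Stfa2, Stfa2l1 and Cstdc5, with log2 changes of 1.63, 2.63, 1.78, 1.73 and 3.75. With median-of-ratios scaling no member passed, where 136 genes of the table did. S100a9 was then at -0.08 and Cstdc4 at -0.17, against 0.77 and 0.66 in the rescaled values. Retnlg also passed the limma test when assembled transcripts were added (2.38, adjusted p = 0.0392), where 5645 genes of the table did. Without Lipo-MK1775 replicate 2 the change of Retnlg was 3.92, where again a lone Lipo-MK1775 library is assumed to vary as the other groups do. The mitochondrial share was 56.0% and 64.1% in Lipo-MK1775 and 2.98% and 3.49% in Lipo-MK1775+NLG, so the share and the addition of NLG919 cannot be told apart.

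The addition of NLG919 to the free drug was read in the same way. In Free-MK1775+NLG919 against Free-MK1775, 6 members were higher and 3 lower, with a median log2 change of 0.44 beside -0.39 over all genes, of which 24% were higher. With median-of-ratios scaling the members' median was 0.91 here and 0.75 for the addition of NLG919 to the Lipo form. No gene of the table passed this test (0%), no member had an unadjusted p under 0.05, which 10.8% of all genes had, and every member's libraries overlapped, where 6.98% of all genes were higher and 30.8% lower without overlap. Cstdc4 differed by 0.96 (SE 0.66, adjusted p = 0.479) and Stfa3 by -1.46 (SE 2.09). Without the 3 libraries of high keratinocyte markers Stfa3 was at 0.0194 and Cstdc5 at 1.08, against -0.15 for Cstdc5 with all libraries. That removal leaves a lone Free-MK1775 library. Whether the step from single drug to pair differs between the forms was not tested.

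The forms were also compared directly. In Lipo-MK1775 against Free-MK1775 the median was -0.05 for the members and -0.71 over all genes, and 4 members were higher and 5 lower, where 15.8% of all genes were higher. No member's libraries were separate, where 66% of all genes were lower and 7.35% higher without overlap. No member passed the test or had an unadjusted p under 0.05, where 3.25% and 38.4% of all genes did. Cstdc4 had a log2 change of 1.27 (SE 0.66, adjusted p = 0.180). With median-of-ratios scaling 6 members were higher, and with FPKM as deposited 1 was. Without the libraries of high keratinocyte markers Cstdc5 was at 0.44 and Stfa3 at 0.59, against -0.79 and -0.89 with all libraries. Here too a lone Free-MK1775 library remains.

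In Lipo-MK1775+NLG against Free-MK1775+NLG919 all 9 members were higher, with a median of 0.97 beside 0.42 over all genes, of which 77.1% were higher. Once more no member passed the test or had an unadjusted p under 0.05, where 0.013% and 12.6% of all genes did. S100a9, Retnlg, Cstdc5, Stfa3 and Stfa1 were higher without overlap, as 38.7% of all genes were, and none was lower without overlap, as 7.94% were. The separation of S100a9 was narrow, at 1003 in Lipo-MK1775+NLG replicate 2 against 995 in Free-MK1775+NLG919 replicate 2, the library with 47.3% mitochondrial FPKM. Retnlg had a log2 change of 1.07 (SE 0.80, adjusted p = 0.461), and Stfa1 is listed at 0 in both Free-MK1775+NLG919 libraries. At about 1.3 reads in Lipo-MK1775+NLG replicate 1, the separation of Stfa1 is again not read as a difference. With median-of-ratios scaling S100a8 and S100a9 were at 0.07 and 0.06, against 0.58 and 0.57 in the rescaled values, and the members' median was 0.47. Without the 3 libraries of high keratinocyte markers Cstdc5 was at 1.35 and Stfa3 at 1.76, against 2.96 and 4.05 with all libraries. That removal leaves a lone Lipo-MK1775+NLG library.

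Relatives of the members were followed as lists chosen with earlier results of these data known. Of 11 other stefins and cystatins 7 could be tested, and none passed the test in any comparison, where 0% to 21.1% of all genes did. The ubiquitous inhibitors Cst3 (cystatin C) and Cstb (stefin B) were at 613 to 1364 and at 428 to 669 in the same per-length unit. Cstb was above each stefin A copy in every library, but Cstdc5 came near it in Lipo-MK1775+NLG replicate 2, at 446 against 573. Cstdc6, a further copy of the chromosome 16 cluster, was at 44.8 and 83.8 in negative control replicate 1 and Lipo-MK1775+NLG replicate 2 and at 2.08 to 20.04 elsewhere, the pattern of Cstdc5. Of 17 other genes of the S100 list 11 could be tested, and none passed in any comparison, beside the same shares of all genes. The list includes S100pbp, which binds an S100 protein and is not an S100 gene. S100a6 was at 2478 to 5041 and S100a4 at 1185 to 2341, and the highest S100a6 level was in Lipo-MK1775 replicate 1, the library with the lowest S100a8 level.

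Retnla, the resistin-like alpha gene known from alternatively activated macrophages, was highest in Lipo-MK1775, the group with the lowest Retnlg library. It was at 0 and 8.66 in the negative control, 2.44 and 1.11 in Free-MK1775, 0 and 1.56 in Free-MK1775+NLG919, 163 and 26.5 in Lipo-MK1775, and 1.15 and 3.52 in Lipo-MK1775+NLG. Both Lipo-MK1775 libraries were above all others, and Retnla rose against the control (log2 change 4.43, SE 1.13, adjusted p = 0.0351). Leaving out a library ended this call in 8 of 10 fits, all but those without a Free-MK1775+NLG919 library, and median-of-ratios scaling gave an adjusted p of 0.0552. Retn, the resistin gene itself, was at 0 to 3.69.

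Other neutrophil genes were not called where the members were highest. Of 18 tested genes from a list of granule proteins and related genes none passed in Lipo-MK1775+NLG against the control. Positive changes were seen for 16 of these, with a list median of 0.56. Of 24 tested surface and maturity markers none passed either, and 21 had a positive change, with a median of 0.40. Over all genes 0.00648% passed in this comparison and 46.9% had a positive change, with a median of -0.02. In Lipo-MK1775 against the control 1 gene of the granule list rose, Chil3, and 3 fell: Ngp, Mmp9 and Padi4. These 4 calls among 18 genes stand beside 21.1% of all genes called in this comparison. Ngp, a protein of the secondary granules, fell by 3.04 (SE 0.76, adjusted p = 0.0339). Padi4, which makes the citrulline of neutrophil extracellular traps, fell by 2.78 (SE 0.53, adjusted p = 0.0262). With assembled transcripts added the change of Padi4 was -0.81. Chil3, a secreted lectin of neutrophils and macrophages, rose by 2.68 (SE 0.61, adjusted p = 0.0301). Naming Chil3 here, like Cxcr2, Mmp8, Tnf, Tlr4, Cxcl5 and Ifitm6 in what follows, was a choice made after values had been seen.

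Ngp moved apart from the members even within libraries. It was at 0.289 and 3.49 in Lipo-MK1775 against 14.4 to 67.8 in the other 8, while Lipo-MK1775 replicate 2 held the highest S100a9 level of all. As a share of S100a9, Ngp was 0.0856% and 0.282% in Lipo-MK1775 and 1.51% to 17% elsewhere. Its highest shares, 17% and 9.71%, were in replicate 1 of Free-MK1775 and of Free-MK1775+NLG919. Cxcr2, the chemokine receptor of mature neutrophils, was at 0.446% to 0.867% of S100a9 in the 3 libraries of high mitochondrial share and at 1.44% to 2.28% in the other 7. The part of the mitochondrial share in these ratios was not tested.

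Between Lipo-MK1775+NLG and Lipo-MK1775, 4 genes of the granule list rose in the former: Ngp, Padi4, Mmp9 and Mmp8. Their changes were 3.83, 3.33, 1.47 and 2.32 (adjusted p = 0.0426, 0.0322, 0.0280 and 0.0490), and Chil3 fell by 2.97 (adjusted p = 0.0429). Ifitm6, a membrane protein of myeloid cells, rose by 1.32 (adjusted p = 0.0472), the only call among 24 surface markers, where 4.75% of all genes were called. In Lipo-MK1775 against Free-MK1775, where 3.25% of all genes were called, Chil3 rose and Ngp and Padi4 fell, by 4.17 and 2.62 for the latter (adjusted p = 0.0413 and 0.0447). Every one of these calls, in the 3 comparisons, ended when either library of the negative control or of Lipo-MK1775+NLG, or Lipo-MK1775 replicate 1, was left out. With median-of-ratios scaling the calls of Ngp, Padi4, Mmp9, Mmp8 and Ifitm6 ended, with adjusted p from 0.0660 to 0.543, while those of Chil3 held. With assembled transcripts added, Padi4 was at 1.32 in Lipo-MK1775+NLG against Lipo-MK1775 and at -1.03 in Lipo-MK1775 against Free-MK1775.

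Ligands that recruit neutrophils were tested as 11 genes, of which 3 were called in Lipo-MK1775 against the control, beside 21.1% of all genes. Cxcl1, a ligand of CXCR2, fell by 1.53 (SE 0.35, adjusted p = 0.0297) and Tnf fell by 1.72 (SE 0.50, adjusted p = 0.0430). Cxcl5, another CXCR2 ligand, rose by 2.60 (adjusted p = 0.0272) from symbol-bearing transcripts. With assembled transcripts added it passed the same limma test as a fall, at -1.89 (adjusted p = 0.0306). Against Free-MK1775 the change of Cxcl5 was 3.58 (adjusted p = 0.0265), and -1.60 with assembled transcripts (adjusted p = 0.0614). Both ligands moved the other way in Lipo-MK1775+NLG against Lipo-MK1775, where Cxcl1 and Tnf rose by 2.24 and 2.22 (adjusted p = 0.0304 and 0.0470). The Cxcl1 and Tnf calls ended with median-of-ratios scaling (adjusted p from 0.0779 to 0.204). All ligand calls from symbol-bearing transcripts ended without either library of the negative control or of Lipo-MK1775+NLG, or without Lipo-MK1775 replicate 1. In the other 5 comparisons no ligand passed, where 0% to 0.0194% of all genes did.

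Of 13 genes for receptors and signalling of S100A8 and S100A9, 1 passed: Tlr4 fell by 2.16 in Lipo-MK1775 against the control (SE 0.60, adjusted p = 0.0398). Its levels were 19.6 and 19.1 in the negative control and 2.93 and 4.304 in Lipo-MK1775, and the call ended with median-of-ratios scaling (adjusted p = 0.103). None of 10 cysteine cathepsins, the enzymes that stefins inhibit, passed in any comparison, where 0% to 21.1% of all genes did. The summed level of these cathepsins was 2218 to 4516. Of 7 tested granulocyte transcription factors, Cebpb fell by 0.79 in Lipo-MK1775 against the control (SE 0.23, adjusted p = 0.0430), and was at 0.09 with median-of-ratios scaling. Each is 1 call in a comparison that called 21.1% of all genes. Leaving out a library ended the calls of Tlr4 and Cebpb in 8 of 10 fits each, all but those without a Free-MK1775+NLG919 library.

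Genes with profiles most like the members were found by Pearson r of log2 levels over the 10 libraries, among 10158 genes with a mean level of at least 5. The 5 nearest to S100a8 and S100a9 were Cxcl2, Arhgdig, Rhov, Wfdc21 and Bcl2l12, with r from 0.88 to 0.83. Cxcl2, a further CXCR2 ligand, was at 63.6 and 33.0 in the negative control, 17.6 and 40.7 in Free-MK1775, 23.5 and 41.7 in Free-MK1775+NLG919, 20.1 and 51.1 in Lipo-MK1775, and 73.3 and 70.0 in Lipo-MK1775+NLG. Its 2 highest libraries were those of Lipo-MK1775+NLG, as for Retnlg. Nearest to the summed stefins were Cstdc6, Cxcl2, Rhov, Car2 and E4f1, with r from 0.95 to 0.84. Cxcl2 and Rhov are on both lists. In the 7 libraries of low mitochondrial share the r of Cxcl2 with the S100 pair was 0.92 and that of Cstdc6 with the stefins 0.995. Those 7 include the 3 libraries of high keratinocyte markers, whose part in these r values was not tested.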

How the data were processed

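Bulk RNA-seq libraries were deposited as FPKM per transcript. Per the submitters' processing notes the tools were FastQC, Trim Galore, HISAT2 and StringTie with genome build GRCm39; versions, strand setting and the handling of multi-mapped reads are not stated there. From the FPKM values that the authors deposited, nuclear transcripts were summed by gene symbol and rescaled to a total of 1000000 per library. Of 161762 transcripts, 21051 had no symbol and were left out; 46 were mitochondrial. Genes at 1 or more in at least 2 libraries (15440) entered limma 3.58.1 (R 4.3.3) on log2(value + 1), with a mean per group over all 10 libraries and a variance trend. Each SE and p-value thus rests on a spread shared by all groups. One of these is Free-MK1775+NLG919, whose libraries had mitochondrial shares of 2.88% and 47.3%. Fold changes are on the log2(value + 1) scale and understate those of low genes. P-values are two-sided and Benjamini-Hochberg adjusted over all genes tested in each of 8 comparisons, 4 of which share the control. The script was tested on simulated data.

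The members, gene lists and rules were chosen with earlier results of these data known. Not all genes of the lists are named, and some genes of highest mean level and some genes called are left out. The calls of Apoe, Kit and Hbb-bs, from the cell type marker lists, are not described. Alternatives were the FPKM as deposited, median-of-ratios scaling, a pseudocount of 0.1, no filter, assembled transcripts added to the symbol at their locus, a replicate block, and fits without libraries. Depth is known only in relative terms; read numbers are estimates from the smallest FPKM steps and give no interval.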

Additional observations from a re-analysis of the deposited data

How the results depend on the processing

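No member passed the test in any comparison under the pseudocount of 0.1, no filter, median-of-ratios scaling, the replicate block or either removal of 3 libraries. In Lipo-MK1775+NLG against Lipo-MK1775, 5 members passed with FPKM as deposited and 1 with assembled transcripts, and 0 to 1 with a library left out; in Lipo-MK1775 against the control 0 to 1 did. Of 1237 alternative values of the members, 92 changed sign with neither value called. Cebpb was at 0.0879 with median-of-ratios scaling. Cxcl5 was at -1.89 and -1.60 with assembled transcripts, and the first of these passed the test as a fall. The cause was not tested.

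The number of genes called over the whole table, which sets the background, moved widely. In Free-MK1775 against the control it was 2, and 1 with FPKM as deposited, the pseudocount, assembled transcripts, the replicate block or without the 3 libraries of high mitochondrial share, and 20 without a filter. In Free-MK1775+NLG919 against the control it was 3, and 9 as deposited, 10 with median-of-ratios, 27 without a filter and 22 with assembled transcripts. In Lipo-MK1775 against the control it was 3256, and 5939, 800, 722 and 6541 in that order, 2129 with the block and 0 without the 3 libraries of high keratinocyte markers, a removal chosen after seeing the data. For Lipo-MK1775+NLG against the control it was 1, and 0 with median-of-ratios, assembled transcripts, the block or either removal, 2 with the pseudocount and 20 without a filter. In Free-MK1775+NLG919 against Free-MK1775 it was 0, with 1662 genes at an unadjusted p under 0.05, and 1 as deposited, with the pseudocount or with assembled transcripts, 4 without a filter and 2 without the libraries of high mitochondrial share. For Lipo-MK1775+NLG against Lipo-MK1775 it was 734, and 6777 as deposited, 136 with median-of-ratios, 45 without a filter, 5645 with assembled transcripts, 40 with the block and 2 without the keratinocyte libraries. In Lipo-MK1775 against Free-MK1775 it was 502, and 5978, 118, 56, 4672, 56 and 2 in the same order. Between the pairs in Lipo and free form it was 2, and 5 without a filter and 1 with assembled transcripts, the block or without the keratinocyte libraries. With a library left out the counts ran, in the same order of comparisons, from 1 to 2, 1 to 6403, 0 to 7586, 0 to 2, 0 to 5662, 0 to 7348, 1 to 6898 and 1 to 6011.

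Where the counts ranged widely with a library left out, the highest came from a fit without a Free-MK1775+NLG919 library. Deviations of same-numbered libraries from their group means correlated from -0.196 to 0.065 between groups. With 2 libraries a group, which differ in mitochondrial share and keratinocyte markers, this cannot show whether samples of the same number are paired. Without the libraries of high mitochondrial share no Lipo-MK1775 library remains, so comparisons with that group have no value. With 2 libraries a group, no member's change passed the test in the rescaled values, and Stfa1 is near the limit of detection.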
